A study of Homo sapiens with 7 samples.

Results

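Rb occupancy was examined at the promoters of 35 genes of homologous recombination (HR) and the Fanconi anaemia pathway, out of 19962 protein-coding genes on chromosomes 1 to 22 and X. The genes were taken by name and cover the BRCA1 and BRCA2 partners, the recombinase paralogues and their accessory factors, the BLM complex with the BRIP1 helicase, the Fanconi core and ID2 complexes, the structure-selective nucleases, and POLQ and HELQ. A gene was scored as having a promoter peak when a called peak overlapped the stretch from 2000 bp upstream to 500 bp downstream of any of its annotated transcription start sites (TSSs). The other 19927 protein-coding genes, scored in the same way, served as background.

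The cells were ZR-75-1, a breast cancer line that expresses the oestrogen receptor, kept for 4 days in 500 nM palbociclib, an inhibitor of CDK4 and CDK6, or in an equal volume of DMSO. In CUT&RUN, the assay used, an antibody tethers a nuclease to its target and the DNA around it is cut out and sequenced. Parental cells gave 2 Rb libraries with DMSO and 2 with palbociclib, from an experiment done once with separate biological replicates. RB1 knockout (RB1 KO) cells gave 1 Rb library with each treatment. By the study's methods, knockout cells were made with Cas9 and grown from sorted single cells, so they stand for clones and not for a population. The remaining library used a non-targeting IgG2a antibody in parental cells with palbociclib. Peaks on chromosomes 1 to 22 and X numbered 922 and 753 in the DMSO lists, 8314 and 8171 in the palbociclib lists, 4 and 5 in the RB1 KO lists with DMSO and palbociclib, and 1724 in the IgG2a list. Only peak lists were analysed, so sequencing depth is unknown, and a gene without a peak is one that was not called, which does not show that Rb was absent.

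HR repairs double-strand breaks by copying an intact template: the broken ends are resected, BRCA2 and its partners load the recombinase on the single strand, and helicases and nucleases resolve the joined molecules. The Fanconi core complex places ubiquitin on FANCD2 and FANCI at DNA crosslinks, after which nucleases and HR finish the repair. Many of these genes are expressed in S phase under the control of E2F transcription factors, which hypophosphorylated Rb binds and represses. CDK4 and CDK6 phosphorylate Rb, so their inhibition keeps Rb in the form that binds E2F.

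Nearly all of these promoters had a called Rb peak after palbociclib, and far fewer had one without it. A promoter peak was called for 34 of 35 genes (97.1%) in the first palbociclib list, against 39.5% of other protein-coding genes, and for 32 of 35 (91.4%) in the second, against 38.9%. In DMSO, 14 of 35 (40%) had a promoter peak in the first list, against 5.16% of other genes, and 12 of 35 (34.3%) in the second, against 4.23%. The members thus stood above the background in both conditions. In both palbociclib lists the count was 32 of 35, against 34.8% of other genes, and in both DMSO lists it was 9 of 35 (25.7%), against 2.87%. At least 1 DMSO list held a peak for 17 of 35 (48.6%), against 6.52% of other genes. The genes with a peak in both palbociclib lists and neither DMSO list numbered 16 of 35 (45.7%), against 28.3%. A peak in all 4 parental lists was found for 9 of 35 members (25.7%), against 2.87% of other genes. These 9 were all the members with a peak in both DMSO lists. The 571 other genes with a peak in both DMSO lists were likewise all in all 4, so this was not particular to the members.

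No member had a promoter peak in the controls. The count was 0 of 35 in the RB1 KO list with DMSO, against 0.00502% of other genes (1 gene), and 0 of 35 in the RB1 KO list with palbociclib, again against 0.00502% (1 gene). In the IgG2a list it was 0 of 35, against 1.96% of other genes. The Rb peaks were called against IgG, and whether this library was that control is not given in the sources used here, so the low overlap may be partly built in. A count of 0 of 35 allows a share of up to 10% by the exact Clopper-Pearson 95% interval, which covers counting error only. That interval treats the 35 genes as a random sample, whereas they were taken by name, and it does not measure spread between libraries. The RB1 KO lists hold so few peaks on these chromosomes that an absent peak there was the rule for every gene, and with 1 library each no test was made.

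**Figure D1:**
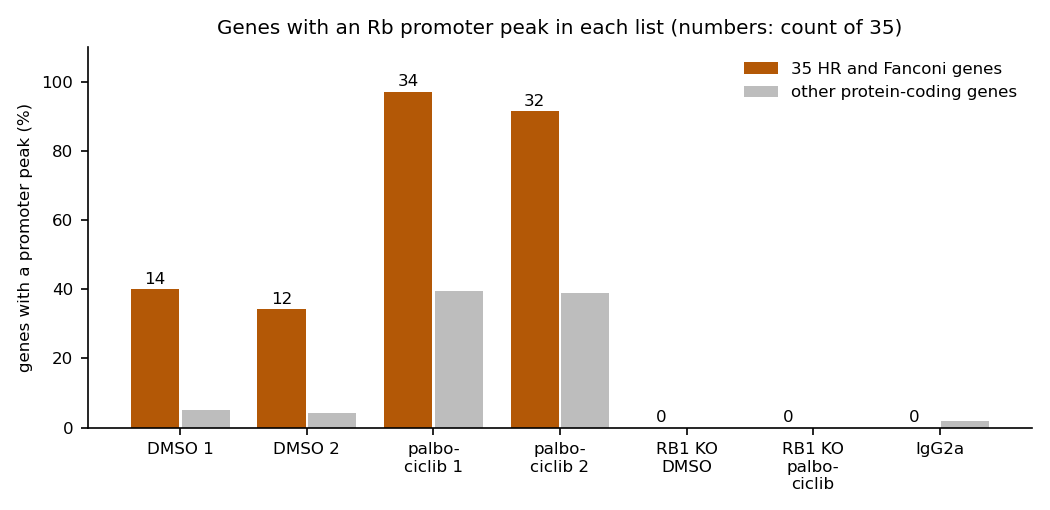
Percentage of genes with an Rb promoter peak (vertical axis) in each of the 7 peak lists (horizontal axis), for the 35 HR and Fanconi genes and for the other 19927 protein-coding genes. The orange bars stand at 34 and 32 of 35 genes with palbociclib and 14 and 12 with DMSO, above the grey bars in each parental list, and at 0 in the 3 control lists.

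The letters that E2F proteins are known to bind were looked for within 100 bp of the summit of each gene's highest promoter peak, as TTTCCCGC, TTTCGCGC, TTTGCCGC or TTTGGCGC on either strand. They were found for 5 of 34 members (14.7%) in the first palbociclib list and 4 of 32 (12.5%) in the second. The corresponding windows of other protein-coding genes held them in 5.4% and 5.64% of cases. Genes with a peak in both palbociclib lists were then split by DMSO calls, counting a match in either palbociclib list. With a peak in at least 1 DMSO list, 5 of 16 members (31.2%) matched, against 14.4% of other genes. With no DMSO peak it was 1 of 16 (6.25%), against 6.82%, so the 8 letters were not more frequent in those members. The genes with a match included FANCA (both lists), FANCD2, FANCG and RAD51C (first list), and BRCA2 and XRCC2 (second list). The sequences of these 6 are shown as examples, since each places the letters beside an Rb summit. They are not the full set, as RMI2 also matched in both lists. The stretch is given 5′ to 3′ on the strand of the gene (hg38), and the capitals mark the E2F letters.
FANCG, chr9:35079788-35079817, minus strand: tcctccccgagTTTCCCGCgggaactaact
FANCA, chr16:89816801-89816830, minus strand: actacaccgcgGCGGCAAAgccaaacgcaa
FANCD2, chr3:10026424-10026453, plus strand: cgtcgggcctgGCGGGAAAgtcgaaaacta
RAD51C, chr17:58692680-58692709, plus strand: gatttggtgagTTTCCCGCtgtctccagcg
XRCC2, chr7:152676102-152676131, minus strand: tggcgttggtgGCGGGAAAgttgagtctct
BRCA2, chr13:32315818-32315945, plus strand: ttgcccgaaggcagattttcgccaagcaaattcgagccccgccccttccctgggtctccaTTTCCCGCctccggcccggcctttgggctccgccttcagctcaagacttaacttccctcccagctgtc
The same 8 letters, TTTCCCGC or their reverse complement GCGGGAAA, occur in 5 of the 6 stretches shown, and FANCA has the GCGGCAAA form. The capitals lay 38 bp from the palbociclib summit of RAD51C, 51 bp for FANCG, 59 bp for FANCA, 62 bp for FANCD2, 71 bp for XRCC2 and 73 bp for BRCA2. All bases printed for FANCG, FANCA, FANCD2, RAD51C and XRCC2 lie in annotated exons of protein-coding genes, whereas 0 of the 128 bases of BRCA2 do.

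With the first T of each of the 4 left out (as in TTCCCGC, so that every 8-letter match holds this form too), 14 of 34 members (41.2%) and 15 of 32 (46.9%) had a match, against 23.2% and 23.3% of other windows. Split by DMSO calls as above, 10 of 16 members (62.5%) matched in each class. Of other genes, 41.7% matched with a DMSO peak and 30.2% without. BARD1, RAD51AP1, RAD54L and XRCC3 are 4 of the members with this shorter form only, and their stretches are shown for comparison with the 6 above. FANCM, MUS81, EME1 and GEN1 also had it alone, at peaks that lie nearer to other genes.
BARD1, chr2:214809654-214809739, minus strand: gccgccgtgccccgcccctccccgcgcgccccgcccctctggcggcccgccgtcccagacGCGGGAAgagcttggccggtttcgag
RAD51AP1, chr12:4538857-4538886, plus strand: gtctggttttggGCGGGAAttgaaaccgcc
RAD54L, chr1:46247627-46247656, plus strand: ggcgcagcactaTTCCCGCctcttccttgg
XRCC3, chr14:103715435-103715464, minus strand: ggagcaggacgGCGGGAAgaggagtgcgga
The GCGGGAA or TTCCCGC form was present in all 4. Among these, the capitals lay 9 bp from the palbociclib summit of RAD54L, 21 bp for BARD1, 32 bp for RAD51AP1 and 74 bp for XRCC3. FANCC and BRIP1, next to FANCG in mean fold enrichment, had neither form within 100 bp of a palbociclib summit. Within 250 bp, FANCC had the 8-letter form in both palbociclib lists, and BRIP1 had the shorter form in the first. A match is a run of letters and not a measured site.

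The other motifs were counted in the same windows. CCAAT, the letters bound by NF-Y, lay in 29.4% and 31.2% of the members' windows, against 24.6% and 25.4% of others. At 250 bp to each side the shares were 64.7% and 62.5%, against 43.4% and 43.9%. TTTGAA, the cell cycle homology region read by the DREAM complex, lay in 2 windows of each list, 5.88% and 6.25%, against 3.26% and 3.34%. Within 250 bp it lay in 23.5% and 15.6% of them, against 9.2% and 9.26%. GGGCGG, the GC box, was found less often in the members, in 55.9% and 62.5%, against 68.8% and 70%. The members' windows were lower in GC content, with medians of 65.9% and 65.7% against 70.6% in each list. CCGGAAGT (ETS) and GCATGCGC (NRF1) each occurred in 1 member window per list, 2.94% and 3.12%, against 3.14% and 3.39% of other windows for ETS and 3.19% and 3.25% for NRF1. TGACGTCA (CRE) occurred in none, against 1.05% and 1.11%.

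**Figure D2:**
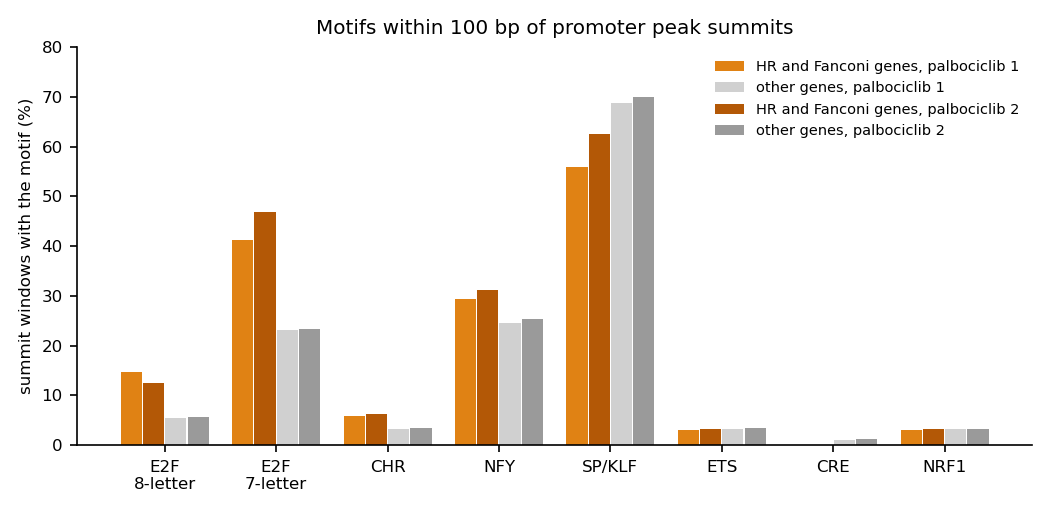
Percentage of summit windows of 100 bp to each side that hold each motif (vertical axis), by motif (horizontal axis), for members and other genes in each palbociclib list. The 2 E2F forms stand higher in the members in both lists, and the GC box stands lower.

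BRCA1 and BARD1 form a ubiquitin ligase that promotes end resection and recombinase loading, BRCA2 loads the recombinase, PALB2 bridges BRCA1 and BRCA2, and RBBP8 (CtIP) starts resection. Of these 5 genes, 4 had a promoter peak in both palbociclib lists, against 34.8% of other protein-coding genes. Fold enrichment, the ratio of fragments over the summit to the local background as the authors' caller gave it, was taken from the highest promoter peak of each gene. At BARD1 it was 21.9 and 20.5 in the palbociclib lists and 5.2 in the first DMSO list, with no peak in the second. RBBP8 was similar, at 21.3 and 19.6 with palbociclib and 6.89 in the first DMSO list only. BRCA2 had 12.9 and 16 with palbociclib, and a DMSO peak of 5 in the first list only. In each of the 3 genes the palbociclib values lay above the single DMSO value, a pattern that was not counted over other genes. PALB2 was called in the first palbociclib list alone, at 4.56 with 19 fragments over the summit, and its peak also covers the start of DCTN5, 156 bp away on the other strand.

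BRCA1 needs its transcript starts told apart. Its highest peaks (9.54 and 9.78) lay at an upstream transcript start, at positions −44764 and −44742 bp relative to the canonical one, in the first palbociclib list at chr17:43170023-43170559, and also covered the starts of NBR1 and 2 non-coding genes. At the canonical BRCA1 start the values were 8.89 (chr17:43124534-43125612) and 4.99 (chr17:43125187-43125490), with summits 72 and 23 bp downstream. Neither region had a DMSO peak.

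The recombinase paralogues RAD51B, RAD51C, RAD51D, XRCC2 and XRCC3 assemble in complexes that help the recombinase filament form, RAD51AP1 stimulates strand invasion, and RAD54L and RAD54B are translocases that act on the joint molecule. Each of the 8 was called in both palbociclib lists, against 34.8% of other protein-coding genes. Their mean fold enrichment there spanned 4.59 (RAD54B) to 31.2 (XRCC3). XRCC3 had 32 and 30.5 with palbociclib and 5.95 and 4.27 with DMSO, the largest ratio among the members with peaks in all 4 lists. RAD51AP1 had 24.9 and 25 with palbociclib against 9.68 and 7.85. In neither gene did the groups overlap, which was also so for 100% of the 571 other genes called in all 4 parental lists. RAD54L had 28.1 and 22.6 with palbociclib and 6.26 in the second DMSO list only, and RAD51C 16.3 and 10.4 with 4.91 in the second DMSO list only. RAD51B, RAD51D, XRCC2 and RAD54B had no DMSO peak, and they were the lowest of the 8 with palbociclib. The RAD51D values of 7.09 and 3.9 differed most between the palbociclib replicates of any member (0.86 on the log2 scale).

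BLM unwinds double Holliday junctions together with RMI1 and RMI2, and BRIP1 is the helicase that binds BRCA1. BRIP1 was among the strongest members, at 39.1 and 32.4 with palbociclib and 10.9 and 10.3 with DMSO. RMI2 had 21.7 and 26.4 against 6.91 and 8.78, and RMI1 had 18.5 and 18.6 against 4.03 and 4.83. For these 3 genes both palbociclib values exceeded both DMSO values, as for 100% of the 571 other genes called in all 4 parental lists. BLM differed, with 9.64 and 9.68 in palbociclib and no DMSO peak.

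Of the 10 genes of the Fanconi core group, 9 had a promoter peak in both palbociclib lists and 5 in at least 1 DMSO list. The shares of other protein-coding genes were 34.8% and 6.52%. FANCG, a scaffold of the core complex, had the highest level of all 35 genes. Its fold enrichment was 50.1 and 37.6 with palbociclib and 23.6 and 14.3 with DMSO, over 122, 115, 62 and 43 fragments at the summit. The FANCG peak spans chr9:35079270-35080158 in the first palbociclib list, at the 5′ end of the gene (chr9:35073835-35080004, minus strand). It ranked 2 of the 922 peaks of the first DMSO list and 21 of the 753 of the second, and 39 and 93 in the palbociclib lists. FANCC, another core subunit, had 38.4 and 33.6 with palbociclib against 6.52 and 8.87. FANCA had 17.7 and 20.7 with 6.62 in the first DMSO list only, and FANCB 14.7 and 15.2 with 7.22 in the second only.

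FANCM is described below with its neighbour. The other core genes were lower. FANCL, the catalytic ubiquitin ligase, had 8.48 and 5.09 in palbociclib and no DMSO peak, and UBE2T, its conjugating enzyme, 5.69 and 7.1. FAAP24, the partner of the translocase FANCM, had 8.97 and 9.36, and FANCE 4.72 and 4.28. FANCF had no promoter peak in any of the 7 lists, the only member of which this was true. Among other protein-coding genes, 56.4% had none in the 4 parental lists.

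FANCD2 and FANCI form the ID2 complex, the substrate of the core complex. The pair differed: FANCI had 16.3 and 19.1 with palbociclib and 4.12 and 4.91 with DMSO, while FANCD2 was called in the first list of each treatment only, at 7.14 with palbociclib and 5.68 with DMSO. FANCD2 was 1 of few genes with this pattern of 1 list of each treatment, shared with 0.0201% of other genes. Its 7.14 rested on 13 fragments at the summit and its 5.68 on 11.

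SLX4 is the scaffold that brings nucleases to crosslinks, MUS81 and EME1 form a junction-cutting nuclease, and GEN1 is a Holliday junction resolvase. POLQ is the polymerase of theta-mediated end joining and HELQ a repair helicase. All 6 had promoter peaks in both palbociclib lists and in no DMSO list. SLX4 had 8.45 and 9.45, POLQ 6.93 and 7.41, and HELQ 7.26 and 8.39. EME1 had 8.48 and 5.57, GEN1 15.1 and 15.8, and MUS81 19.4 and 16.8, but the peaks of these 3 genes lie nearer to other genes, as described next.

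**Figure D3:**
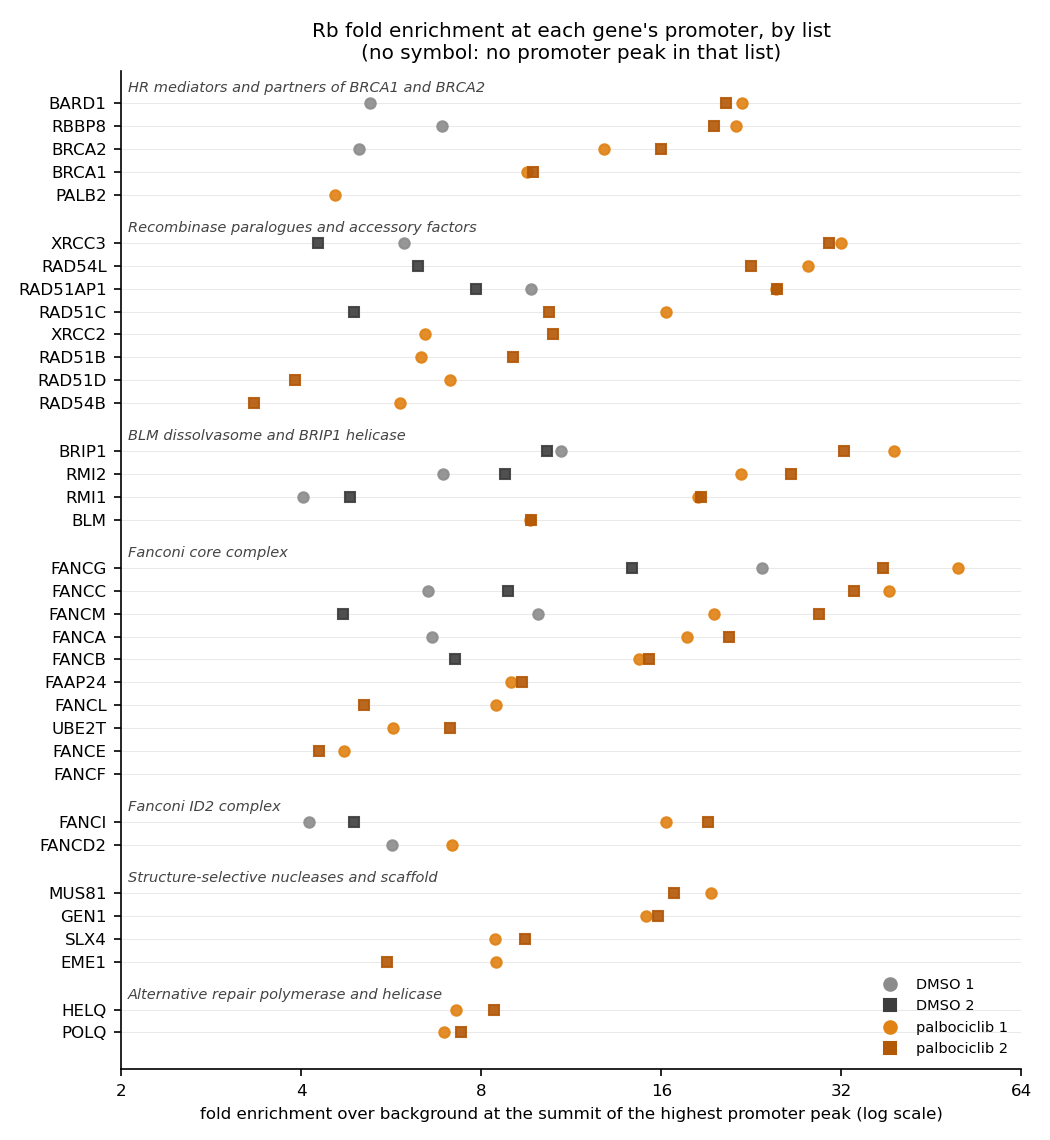
Fold enrichment at the summit of each gene's highest promoter peak (horizontal axis, log scale) for the 35 genes (vertical axis, grouped by role), with 1 symbol per parental list. Wherever DMSO and palbociclib symbols stand on the same row, every palbociclib value lies to the right, FANCG is furthest right at 50.1 and 37.6, and FANCF has no symbol.

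Several of the regions are shared with a neighbour. A protein-coding gene started on the opposite strand within 1000 bp for 13 of 35 members (37.1%), against 12.7% of other protein-coding genes. Members with and without such a partner had peaks in both palbociclib lists alike, at 12 of 13 (92.3%) and 20 of 22 (90.9%), whereas for other genes the shares were 63% and 30.7%. The highest peak covered the start of another protein-coding gene for 12 of 34 members (35.3%) in the first palbociclib list and 11 of 32 (34.4%) in the second, against 24.6% and 24.7% of other genes. In both lists this held for XRCC3 (with ZFYVE21), RAD51AP1 (C12orf4), RMI1 (HNRNPK), FANCB (MOSPD2) and SLX4 (DNASE1), among others. A peak called over both starts cannot be assigned to either gene, so the values given for these members may not be theirs alone.

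FANCM showed the largest discrepancy. Its DMSO peaks (9.94 and 4.69) and its highest palbociclib peaks (19.6 and 29.4) had summits 1571 to 1604 bp upstream of FANCM and 122 to 155 bp from the start of FKBP3. At the start of FANCM itself, palbociclib peaks of 9.19 (chr14:45135913-45136354) and 9.53 (chr14:45135906-45136308) were called and no DMSO peak was. The highest MUS81 peaks lay nearer to CFL1, and peaks with a summit 3 bp from a MUS81 start had 7.01 and 7.77. EME1 and GEN1 summits were nearer to MRPL27 and SMC6 in both lists, and that of FAAP24 was nearer to CEP89 in the first. When only peaks at least as near to the gene's own start as to any other coding gene's were kept, 29 of 35 members (82.9%) had a peak in both palbociclib lists, against 28.4% of other genes, and 8 of 35 (22.9%) in both DMSO lists, against 2.1%.

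For the 9 members with peaks in all 4 parental lists, fold enrichment was higher in both palbociclib libraries than in both DMSO libraries in 9 of 9. The same held for 100% of the 571 other genes in all 4 lists, so the direction was not particular to the members. The ratio of the geometric means, palbociclib over DMSO, ran from 2.36 (FANCG) to 6.2 (XRCC3), with BRIP1 at 3.37, FANCC at 4.73, FANCI at 3.93, FANCM at 3.51, RAD51AP1 at 2.86, RMI1 at 4.21 and RMI2 at 3.07. The median log2 difference was 1.81 (3.51-fold) for the members and 1.88 (3.68-fold) for the other genes. The spread between replicates was taken as an SD of log2 values pooled over genes. It was 0.37 with DMSO over the 9 genes in both lists and 0.27 with palbociclib over the 32 in both. Both were less than each of the 9 differences, but a pooled value does not give the spread of any 1 gene. The DMSO replicates differed most at FANCM, by 1.08 on the log2 scale, beside its palbociclib minus DMSO difference of 1.81. The exact permutation test, two-sided, gave p = 0.333 for each of the 9 genes, the smallest that 2 libraries against 2 allow with 6 possible splits, so no difference could pass a threshold.

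Whether a member was called in DMSO followed its level in palbociclib. With a mean palbociclib fold enrichment of 20 or more, 10 of 10 members had a peak in at least 1 DMSO list, against 86.4% of other genes at that level. Between 10 and 20 the count was 6 of 8 (75%), against 29.9%. The exceptions were GEN1 and MUS81, whose peaks lay nearer to other genes. This was also so for FANCM, which was counted at 20 or more by its peaks near FKBP3. At its own start FANCM had 9.19 and 9.53 with palbociclib and no DMSO peak. Below 10 the count was 0 of 14, against 2.97%. The lowest peak on these chromosomes had a fold enrichment of 2.5 in the first DMSO list and 3.17 in the second. Divided by 3.51, the median ratio of the 9 genes called in every parental list, the mean palbociclib values of the 16 palbociclib-only members were below 2.5 in 10 and below 3.17 in 14. That ratio comes only from genes that were called in DMSO, and the lowest peak of a list is not the calling limit at every promoter. The lowest DMSO peak of a member was 4.03, at RMI1 in the first list. Whether the palbociclib-only promoters follow that ratio was not tested. The 816 best peaks by −log10 q were then kept from every parental list, as many as the shortest of them holds. With these, 11 of 35 members were called in both palbociclib lists, against 3.77% of other genes, and 7 in both DMSO lists, against 2.64%. The palbociclib-only count fell from 16 to 1 of 35 (2.86%), against 0.728% of other genes. Lists of equal length cannot show an overall gain of peaks, by construction, so these counts compare the best peaks only. The part of sequencing depth in the number of peaks was not tested.

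**Figure D4:**
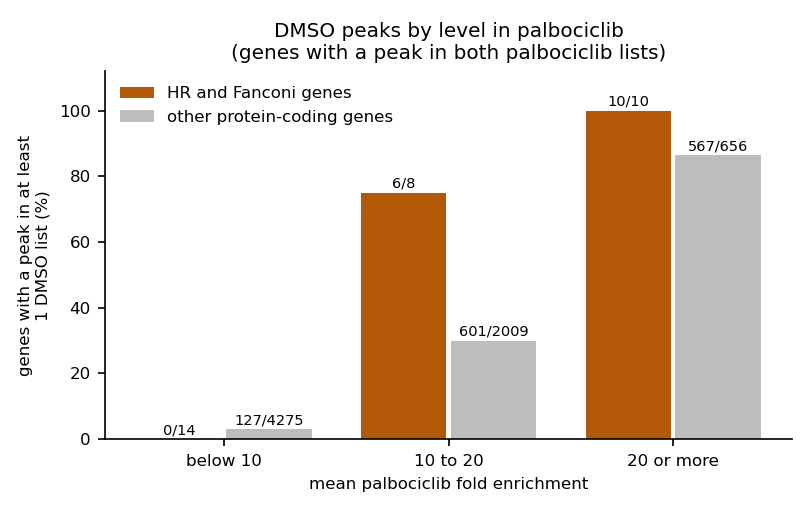
Percentage of genes with a peak in at least 1 DMSO list (vertical axis) by mean palbociclib fold enrichment (horizontal axis), among genes with a promoter peak in both palbociclib lists. Numbers above the bars are counts, and the members go from 0 of 14 below 10 to 6 of 8 and then 10 of 10.

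Levels with palbociclib were high for promoters. The members' median fold enrichment was 13.8 in the first list and 15.5 in the second, against 7.75 and 7.74 for other genes with a promoter peak, and the median member sat at the 83.5 and 87.2 percentile of all peaks in the list. In the DMSO lists the medians were closer, at 6.57 and 6.74 against 5.81 and 6.14. The strongest 5 by mean palbociclib value were FANCG (43.9), FANCC (36), BRIP1 (35.8), XRCC3 (31.2) and RAD54L (25.4). By role, the median of the members' means was 21.3 for the BLM and BRIP1 group, 17.4 for the BRCA1 and BRCA2 partners, 15 for the core complex, 12.2 for the nucleases, 10.9 for the recombinase paralogues and accessory factors, and 7.5 for POLQ and HELQ. Each of these groups held 2 to 9 genes, and no test was made between them.

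The summits lay close to transcription starts. The median absolute distance from the summit of the highest promoter peak to the nearest TSS of the gene was 83 bp in the first palbociclib list and 65.5 bp in the second, against 103 and 102 bp for other genes. Within 250 bp of a TSS were 31 of 34 (91.2%) and 29 of 32 (90.6%) members, against 81.4% and 82%. Of the 34 summits in the first list, 17 were upstream and 16 downstream. The FANCM summits were the furthest upstream, and in both lists FANCM and MUS81 were outside 250 bp. Between the palbociclib replicates, the summit of a member moved by a median of 42 bp, and by at most 100 bp in 26 of 32 genes, against a median of 59 bp for other genes. Between the DMSO replicates it moved by a median of 187 bp, with 3 of 9 genes within 100 bp, against a median of 58 bp for other genes. Peak width had a median of 568 and 642.5 bp in the palbociclib lists and 338 and 210 bp in the DMSO lists.

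**Figure D5:**
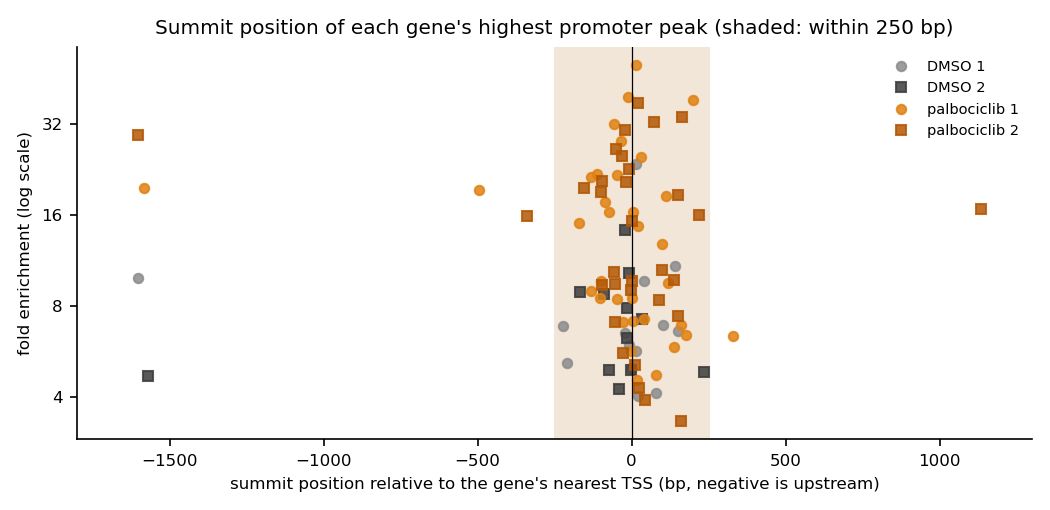
Position of the summit of each member's highest promoter peak relative to its nearest TSS (horizontal axis, bp, negative upstream) against fold enrichment (vertical axis, log scale), with 1 symbol per gene and parental list. Most points lie in the shaded 250 bp to each side, and the points between −1604 and −1571 bp are FANCM.

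Other repair genes were scored for comparison. Of 42 further HR and crosslink repair genes, 35 (83.3%) had a promoter peak in both palbociclib lists and 6 (14.3%) in both DMSO lists, with CENPX (mean palbociclib fold enrichment 56.9), RPA3 (36.3) and SFR1 (34.4) highest. FIGNL1 and RAD50 of that list also had IgG2a peaks, at 4.14 and 6.21. These 2 of 42 (4.76%) stood beside 0 of 35 members and 1.96% of all protein-coding genes outside the members. Of 17 genes of non-homologous end joining, 14 (82.4%) had a peak in both palbociclib lists and 4 (23.5%) in both DMSO lists, with PRKDC (32.3) and DCLRE1C (24) among the highest. Nucleotide excision repair was lower, at 10 of 21 (47.6%) and 2 of 21 (9.52%), with XPC (23.4), DDB2 (17.9) and ERCC3 (9.29) highest. The 91.4% and 25.7% of the members were thus near those of the end-joining genes, and no test of a difference between lists was made.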

How the data were processed

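Per the study's methods and the submitters' processing notes, the authors used Bowtie2 2.3.4.1 for alignment to hg38. Mitochondrial and blacklisted reads were dropped, and duplicates were not. Peaks were called in each library separately by MACS2 2.2.7.1 against matched IgG, at a q-value below 0.05. The control for the IgG2a list is not given in the sources used here. The deposited lists give each peak's coordinates and summit, a score (not used further), fold enrichment as a ratio, and the −log10 p-value and −log10 q-value of the authors' caller. The number of fragments over each summit was recovered from the ratio and −log10 p, to within 0.0055 of the deposited value.

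Groups and replicate numbers came from the sample titles. Promoter peaks overlapped, by at least 1 bp, the 2000 bp upstream to 500 bp downstream of any GENCODE 44 TSS, and the highest fold enrichment per gene and list was kept. No parental peak passed the end of its chromosome over 23 chromosomes. The exact permutation test was run on log2 fold enrichment, 2 libraries against 2. The 2 libraries of a group are biological replicates of 1 experiment. Motif letters and sequences were read from hg38. The steps were tested on simulated data. Python 3.11.15, NumPy 2.4.6, SciPy 1.17.1, pysam 0.24.0 and matplotlib 3.10.9 were used.

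The members and the comparison lists were chosen with earlier results of these data known. All 35 members are reported. Values in every list are given for members with a DMSO peak and for the 5 highest with palbociclib, and the genes named from each comparison list are among its 3 highest, apart from what is not reported here. Other genes were named after their values were seen. FIRRM was not matched to the annotation and is not analysed here.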

Additional observations from a re-analysis of the deposited data

How the results depend on the processing

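Counts in both palbociclib lists (32), in both DMSO lists (9) and in palbociclib only (16) were recomputed under each alternative. The count in both DMSO lists became 5 of 35 (14.3%) with a −log10 q of at least 5, against 1.59% of other genes. With a fold enrichment of at least 5 it was also 5, against 2.02%. At equal list length, the counts in both palbociclib lists and in palbociclib only became 11 and 1, against 3.77% and 0.728% of other genes. Other windows, TSS sets or summit criteria kept each count within 1.5 times. The canonical-start and nearest-gene settings, and the crossed pairing, were chosen after seeing the data. With 1 library left out in turn, the DMSO count ranged from 12 (without the first) to 14 (without the second), the palbociclib-only count from 16 to 20, the count in both palbociclib lists from 32 to 34, and the median log2 difference from 1.71 to 2.08. The median log2 difference (1.81) stayed between 1.62 and 1.94 under the other settings, and as a percentile within the list it was 25.7 points. The median summit distance (76 bp over both lists) was 111 bp to the canonical TSS, against 166 bp for other genes, 55.5 bp when the promoter peak nearest a TSS was taken, and 65.5 to 83 bp with 1 palbociclib library left out. The share of windows with E2F letters (13.6%) was 31.8% within 250 bp, against 12.5% and 12.4% of other windows in the palbociclib lists. With 7 letters it was 43.9%, against 23.2% and 23.3%. With the replicate number as a block, the median log2 difference was 1.81, as it was with the numbers crossed. Deviations of same-numbered libraries correlated at −0.14 over the 9 members and 0.07 over 571 other genes, so the numbers were not taken to pair the samples, and the sign-flip test over 2 pairs cannot go below p = 0.5 (exact). Depth is unknown, so peaks missed for want of fragments cannot be told from unbound promoters.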
